A study of Mus musculus with 6 samples.

Results

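The guide strands of the miR-183 cluster (mmu-miR-182-5p, mmu-miR-183-5p and mmu-miR-96-5p) were followed together with mmu-miR-203-3p and mmu-miR-205-5p in small RNA libraries of 3 tumors and 3 oviducts of mice. The prefix for mouse is left out of most names below. The 5 strands were taken from the deposited table by name, out of 1915 mouse microRNA names. The primary tumors were of the genotype Dicer1ko/D1693N, a knocked-out Dicer1 allele beside the D1693N allele, and the labels call them ADT tumors, an abbreviation that they do not explain. The oviducts were of the genotype Dicer1+/D1693N, so that both groups carried D1693N and none of the libraries came from tissue with 2 wild-type alleles. No treatment was given. The sources used here do not give strain, age, how Dicer1 was knocked out, or whether each library came from its own animal. P-values therefore describe variation among these libraries, part or all of which may be technical. Genotype, tissue state and a mark within the column headers (s1 for tumors, s0 for oviducts) changed together and cannot be told apart.

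Dicer cuts microRNAs out of hairpin precursors, and the strand that is kept (the guide) recognises messenger RNAs mainly through its seed, bases 2 to 8. The hairpins of miR-183, miR-96 and miR-182 are made from a single transcript that is known from sensory cells such as hair cells and photoreceptors, and it is often abundant in epithelia and in carcinomas. The microRNAs miR-203 and miR-205 are known from stratified epithelia, where miR-203 restrains the p63-positive basal state and miR-205 is a marker of basal cells. D1693N changes the RNase IIIb domain of Dicer, which cuts the 5p side of a hairpin.

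The mature guide strands are printed so that their seeds can be compared, and whether any of them share targets was not tested. Sequences are those of RefSeq on GRCm38.p6, in which all 5 names matched, and capitals mark the seed.
miR-182-5p: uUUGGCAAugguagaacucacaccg
miR-183-5p: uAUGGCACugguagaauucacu
miR-96-5p: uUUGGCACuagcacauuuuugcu
miR-203-3p: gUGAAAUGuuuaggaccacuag
miR-205-5p: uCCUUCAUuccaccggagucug

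No 2 of these seeds were identical. Counting from 1 at the 5′ end and aligned without gaps, miR-182-5p and miR-96-5p differed in the seed by A8C alone, and miR-183-5p and miR-96-5p by A2U alone. Between miR-182-5p and miR-183-5p the seed held the substitutions U2A and A8C, while 18 of 22 aligned bases were identical. Among 1679 mature mouse names in the RefSeq table, miR-1271-5p had the seed of miR-96-5p, and the seeds of the other 4 strands occurred in no further name. The strand miR-1271-5p was not analysed here.

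All hairpins of the cluster lie on the minus strand of chromosome 6 (GRCm38). Mir183 spans 30169668 to 30169737, Mir96 spans 30169446 to 30169551 and Mir182 spans 30165918 to 30165992. Mir96 lies 116 bases from Mir183 and 3453 bases from Mir182, and GENCODE M21 has no other gene over them. Mir203 lies on the plus strand of chromosome 12 from 112130880 to 112130955, also with no overlapping gene. Mir205 lies on the minus strand of chromosome 1 from 193507463 to 193507530, in an exon of the long non-coding RNA gene 4631405K08Rik. The arm that carries the guide differs between them, as the hairpins of miR-182 and miR-203 show, with the guide in capitals.
Mir182 hairpin: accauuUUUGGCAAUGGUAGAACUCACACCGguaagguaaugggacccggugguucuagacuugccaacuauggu
Mir203 hairpin: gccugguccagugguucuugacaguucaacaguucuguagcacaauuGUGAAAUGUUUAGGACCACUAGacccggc

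The guide of miR-203 is thus the only one of the 5 on the 3p arm.

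Depth ranged from 154002 to 272167 mouse counts in the tumors and from 297039 to 580390 in the oviducts. Values below are counts scaled by library size (CPM) and by TMM factors (trimmed mean of M-values). A floor of 3 counts equals 12.8 to 15.0 CPM in the tumors and 5.45 to 11.8 CPM in the oviducts. Of 227 microRNAs tested with edgeR, 61 were higher (26.9%) and 58 lower (25.6%) in the tumors at an adjusted p under 0.05. This split depended on the scaling, with 71 higher and 27 lower on library totals alone and 42 higher and 92 lower with TMM factors from 3p names. The tissue label was compared with marker microRNAs. The 5 guides of the epithelial miR-200 family summed to between 3841 and 6986 CPM in the tumors and between 6913 and 11920 CPM in the oviducts, none being at 0 in any library, and 1 of the 5 (miR-200c-3p) was called lower. The 6 multiciliated-cell strands summed to between 420.3 and 1204 CPM in the tumors and between 14806 and 21529 CPM in the oviducts, with miR-449a-5p and miR-449c-5p at 0 in at least 1 library and 3 of 5 tested called lower. The 4 strands of miR-143 and miR-145a summed to between 94253 and 832074 CPM in the tumors and between 487759 and 555580 CPM in the oviducts (2 of 4 called lower, none at 0). Both arms of the endothelial miR-126a were called higher, and their sum lay between 15136 and 20113 CPM in the tumors and between 7117 and 9508 CPM in the oviducts. The 6 leukocyte strands summed to between 1424 and 7286 CPM in the tumors and between 1421 and 2394 CPM in the oviducts, with 0 of 6 called. Of 2 red-cell strands the 1 tested was called higher (153.9 to 1108 CPM in the tumors and 140.0 to 183.2 CPM in the oviducts, summed), and of 2 endocrine strands the 1 tested was called lower (8.55 to 135.4 CPM in the tumors and 1240 to 1730 CPM in the oviducts, summed). Most of the multiciliated sum in the oviducts was miR-34c-5p, with a mean of 15537 CPM there and 274.9 CPM in the tumors. The other arm, miR-34c-3p, had means of 357.4 CPM in the oviducts and 183.1 CPM in the tumors. It was not called (log2 -0.96, edgeR adjusted p = 0.0705), although its groups did not overlap. The 3p strand of miR-34b was called lower (log2 -1.53, edgeR adjusted p = 0.00597), with means of 668.0 CPM in the oviducts and 230.3 CPM in the tumors. In bulk tissue fewer cells of a type, less RNA per cell and a change between the arms of a hairpin cannot be told apart from such sums. The part of these lists in the results below was not tested.

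Most guide counts of the cluster were those of miR-182-5p in both groups, and miR-182-5p and miR-183-5p were somewhat more abundant in the tumors without passing the test. Their counterpart miR-96-5p was near the detection limit in every library. The strand miR-203-3p was called higher in the tumors, a call lost in 7 alternative settings and kept in 7. The scarcest of the tested guides, miR-205-5p, had lower TMM-scaled values in the tumors that did not pass the test. Thus 1 of the 4 members past the low-count filter was called, against 52.4% of all tested microRNAs, and miR-96-5p did not pass the filter. Guide strands were 22 to 25 bases long, so their levels are compared without a correction for length. By mean CPM the order was miR-182-5p, miR-203-3p, miR-183-5p, miR-205-5p and miR-96-5p in both groups. The values of miR-203-3p and miR-183-5p overlapped in the tumors and in the oviducts, as did those of miR-183-5p and miR-205-5p in the oviducts, so these neighbours did not differ beyond their spread.

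**Figure D1:**
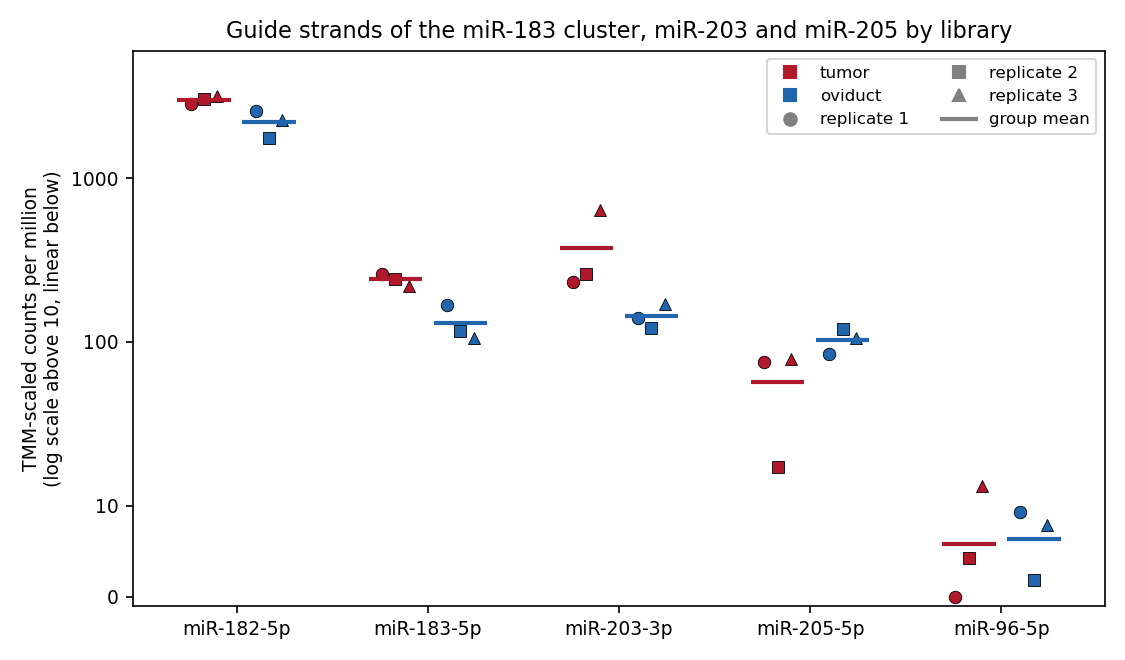
TMM-scaled CPM of the 5 guide strands in each library, with tumors in red left of oviducts in blue, a marker shape per replicate number and a bar at the group mean (n = 3 each); the axis is logarithmic above 10 and linear below. The order miR-182-5p over the others is seen in both groups, tumor 3 stands above the other tumors for miR-203-3p, and tumor 2 below them for miR-205-5p.

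The most abundant member, mmu-miR-182-5p, had 2838, 3036 and 3174 CPM in the 3 tumors and 2580, 1749 and 2279 CPM in the 3 oviducts. These rest on 566, 710 and 725 counts in the tumors and 831, 962 and 579 counts in the oviducts. Every tumor lay above every oviduct on this scale, though the step from the highest oviduct to the lowest tumor was smaller than the range of the oviducts. Among all mouse names it ranked between 27 and 29 in the tumors and between 35 and 46 in the oviducts. The log2 fold change was 0.45 (SE 0.31, 95% interval -0.24 to 1.15, edgeR adjusted p = 0.242), and it was -0.43 with TMM factors from 3p names. As an unscaled share of mouse counts it took 0.208% (exact 95% interval 0.191 to 0.226), 0.402% (0.373 to 0.433) and 0.471% (0.437 to 0.506) in the tumors, against 0.221% (0.206 to 0.237), 0.166% (0.155 to 0.177) and 0.195% (0.179 to 0.211) in the oviducts. On that scale tumor 1 lay below oviduct 1, and in tumor 1 a single strand, miR-143-3p, took 60.9% of all counts.

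The second strand of the cluster, mmu-miR-183-5p, had 260.8, 243.7 and 218.9 CPM in the tumors and 167.7, 116.3 and 106.3 CPM in the oviducts. The counts were 52, 57 and 50 in the tumors and 54, 64 and 27 in the oviducts. The groups did not overlap, as was the case for 60.4% of all tested microRNAs. The log2 fold change was 0.89 (SE 0.43, 95% interval -0.07 to 1.85, edgeR adjusted p = 0.106), which includes both no change and more than a 3-fold rise.

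The third strand of the cluster, mmu-miR-96-5p, was counted 0, 1 and 3 times in the tumors and 3, 1 and 2 times in the oviducts. No library exceeded the floor of 3 counts, so a difference was not detectable at this depth. Pooled, 4 of 602784 counts in the tumors and 6 of 1253043 in the oviducts gave an odds ratio of 1.39 (Fisher's exact conditional 95% interval 0.288 to 5.84, counting error only). The interval spans 1, and it leaves out the spread between libraries.

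Within the cluster the proportions could be read without any scaling between libraries. The strand miR-182-5p took 91.6% (exact 95% interval 89.1 to 93.7), 92.4% (90.3 to 94.2) and 93.2% (91.2 to 94.9) of the cluster's guide counts in the tumors, against 93.6% (91.8 to 95.1), 93.7% (92.0 to 95.1) and 95.2% (93.2 to 96.8) in the oviducts. All tumors lay below all oviducts, by less than the width of the counting intervals. The share of miR-183-5p was 7.42% ± 0.994 in the tumors and 5.58% ± 0.993 in the oviducts (SD, n = 3 each), and that of miR-96-5p was 0.172% ± 0.196 in the tumors and 0.255% ± 0.136 in the oviducts. Thus the guide counts of the 3 hairpins differed by more than 2 orders of magnitude, in tumors and oviducts alike. How closely counts of different sequences follow their amounts in the tissue was not tested.

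In counts, miR-182-5p exceeded miR-183-5p by 10.9, 12.5 and 14.5 times in the tumors and by 15.4, 15.0 and 21.4 times in the oviducts. The difference of the log2 ratios was -0.44 (SE 0.20, two-sided exact permutation p = 0.1, the smallest that 3 against 3 allows, and 0.15 adjusted over the 9 ratios computed), and it was -0.28 without oviduct 3. The ratios of miR-96-5p to the other strands of the cluster overlapped between the groups, with log2 differences of -0.99 (SE 1.02, exact p = 0.5) to miR-183-5p and -0.55 (SE 0.86, exact p = 0.7) to miR-182-5p.

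The direction of these 5p strands can be set beside that of other 5p strands. Of 95 tested 5p strands, 46 were called lower (48.4%) and 2 higher (2.11%), and their median log2 fold change was -1.04. By log2 fold change miR-183-5p ranked 6 from the top of the 95 and miR-182-5p ranked 14, while miR-205-5p ranked 42. Only 7 of the 95 (7.37%) had every tumor above every oviduct, and miR-182-5p and miR-183-5p were among them, with miR-136-5p, miR-335-5p, miR-155-5p, miR-126a-5p and miR-15b-5p, names given here after their values were seen. Of these 7 only miR-136-5p and miR-126a-5p passed the test. Over the 227 microRNAs the median log2 fold change stood at 0.20 with TMM, 0.65 on library totals and -0.73 with TMM from 3p names. A scaling shifts all microRNAs by nearly the same amount, so a difference from that median is close to fixed by construction and its steadiness says nothing on reliability. Relative to the median of each of 5 scalings, miR-182-5p lay between 0.25 and 0.30 and miR-183-5p between 0.63 and 0.73 on the log2 scale.

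**Figure D2:**
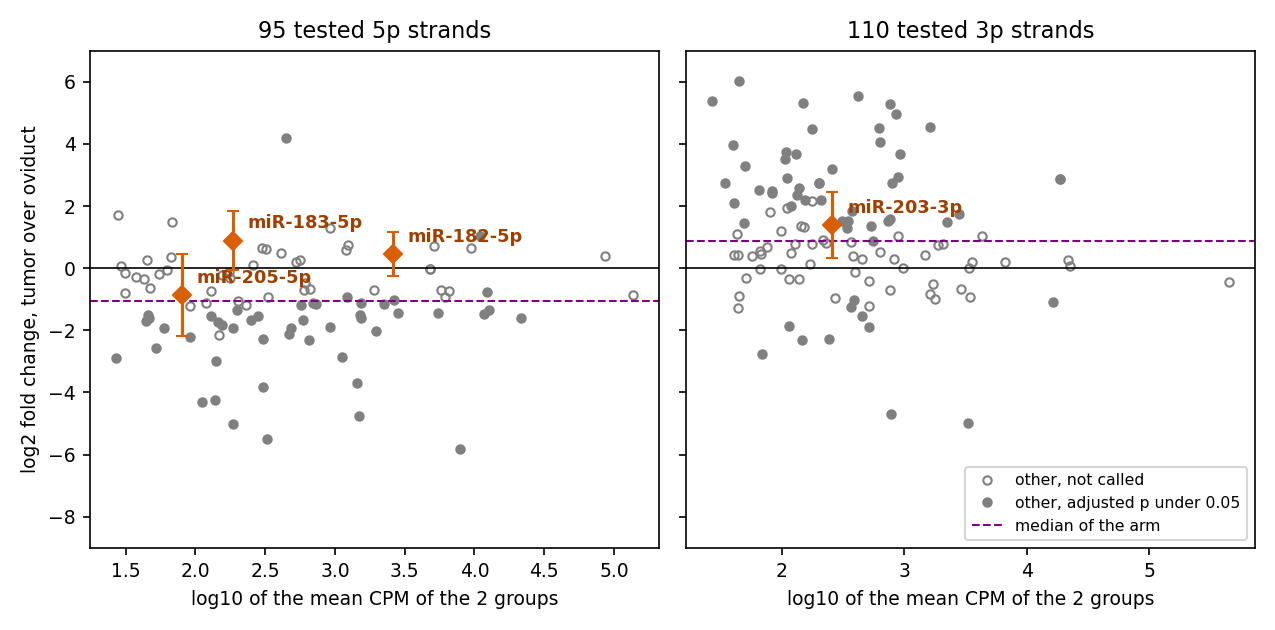
Log2 fold change (tumor over oviduct) of all tested 5p strands (left) and 3p strands (right) against the log10 of their mean CPM, with filled points for an adjusted p under 0.05, a dashed line at the median of the arm, and members as diamonds with 95% intervals. The diamonds of miR-182-5p and miR-183-5p lie above the 5p median of -1.04, although below 0 with TMM factors from 3p names, and miR-203-3p lies near the 3p median of 0.89.

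The opposite strands of the member hairpins were almost uncounted, and 0 of 5 passed the filter. The strand miR-182-3p had 0, 1 and 0 counts in the tumors and 0 in each oviduct. Beside 2001 guide counts in the tumors this was a share of 0.0499% (exact 95% interval 0.00126 to 0.278), and for 0 of 2372 hairpin counts in the oviducts the upper end of the same interval was 0.155%. For miR-183-3p there was 1 count beside 159 of the guide in the tumors and 2 beside 145 in the oviducts, and miR-96-3p had 0 counts throughout. In the pooled tumors the upper limit of the 3p share was thus 0.278% for miR-182 and 3.43% for miR-183, and for miR-96 the depth was too low to read a share. These pooled limits cover counting error only and leave out the spread between libraries. In tumor 2 alone the upper limits were 0.781% for miR-182 and 9.24% for miR-183.

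The 5p:3p ratio of the hairpins was tested with limma, and 47.2% of 142 hairpins were called lower and 4.23% higher. The log2 ratio differed by -0.75 for miR-182 (SE 0.64, limma adjusted p = 0.354) and by 0.75 for miR-183 (SE 0.63, limma adjusted p = 0.351). With 3p counts of 0 or 1 in every library these ratios are set by the 5p count and the added 0.5. With pseudocounts of 0.1 and 5 they were -1.38 and -0.31 for miR-182 and 1.37 and 0.28 for miR-183, so they are no measure of arm use. A set of 43 hairpins had at least 100 pooled counts in each group and a 5p share of at least 95% in the oviducts. These limits were set after the values were seen. In the tumors the 5p share of the 43 ranged down to 34.3%, with a median of 97.2%, and 16 were at 99% or more. Choosing hairpins by a high share in the oviducts itself favours lower shares in the tumors, so nothing is read from this set beyond these values. The 5p share in the tumors was 99.95% for miR-182 and 99.4% for miR-183, against 100% and 98.6% in the oviducts.

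**Figure D3:**
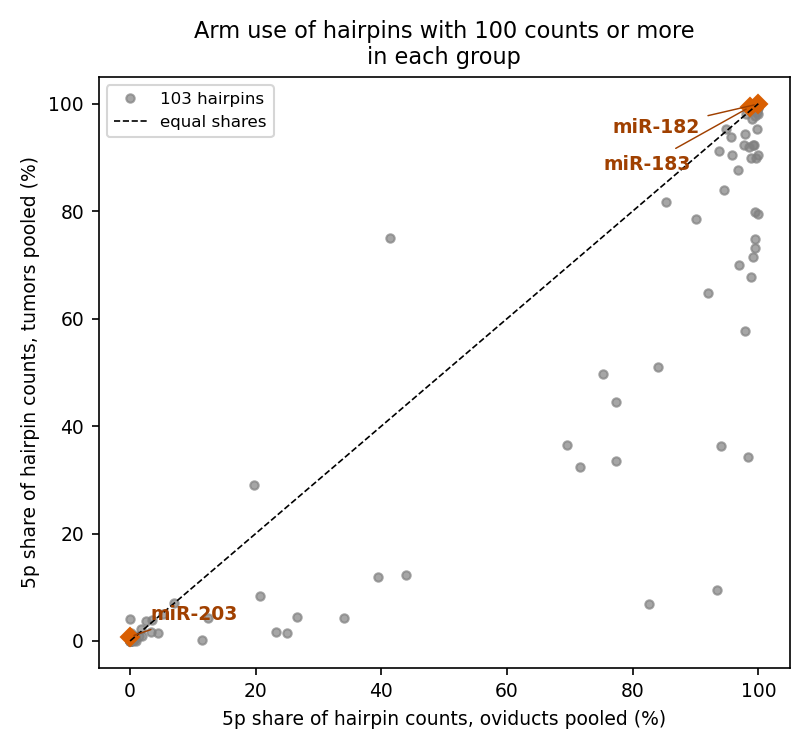
The 5p share of each hairpin's counts in pooled tumors (vertical) against pooled oviducts (horizontal), for 103 hairpins with at least 100 counts in each group; the dashed line marks equal shares. Many hairpins fall below the line. The hairpins miR-182 and miR-183 sit at the upper right corner together with others, and miR-203, whose guide is on the 3p arm, sits at the lower left.

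The epithelial strand mmu-miR-203-3p had 230.7, 260.8 and 634.8 CPM in the tumors and 139.7, 121.8 and 169.3 CPM in the oviducts. Its counts were 46, 61 and 145 in the tumors and 45, 67 and 43 in the oviducts. Every tumor lay above every oviduct, which held for 43.6% of the tested 3p strands, and tumor 3 stood well above the other tumors. The rise was 2.62-fold (log2 1.39, SE 0.48, 95% interval 0.33 to 2.45, edgeR adjusted p = 0.0324). It was not called without tumor 3 (log2 0.67, adjusted p = 0.254), without oviduct 1, 2 or 3 (log2 1.12, 1.18 and 1.25), with TMM factors from 3p names (log2 0.45, adjusted p = 0.383) or with either other low-count filter. Among 110 tested 3p strands 41.8% were called higher and the median log2 fold change was 0.89, and miR-203-3p ranked 46 from the top. Its opposite strand, miR-203-5p, had 2 counts in tumor 1 and 0 in every other library. The hairpin's log2 5p:3p ratio differed by 0.23 (SE 0.91, limma adjusted p = 0.863), a value likewise set by the added 0.5 in all libraries but tumor 1.

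The basal-cell strand mmu-miR-205-5p had 75.2, 17.1 and 78.8 CPM in the tumors and 83.8, 120.0 and 106.3 CPM in the oviducts. These rest on 15, 4 and 18 counts in the tumors and 27, 66 and 27 counts in the oviducts. Every tumor lay below every oviduct on this scale, which held for 55.8% of the tested 5p strands. The margin was narrow for tumors 1 and 3, and tumor 2 was the lowest. As an unscaled share of mouse counts tumor 3, at 0.0117%, lay above every oviduct (0.00719%, 0.0114% and 0.00909%). The log2 fold change was -0.86 (SE 0.60, 95% interval -2.19 to 0.46, edgeR adjusted p = 0.241), or -0.38 without tumor 2. With TMM factors from 3p names it passed the test (log2 -1.78, adjusted p = 0.0290), and on library totals alone it did not (log2 -0.53, adjusted p = 0.544). Relative to the median of all microRNAs it lay between -1.17 and -1.03 in the 5 scalings, a steadiness that is close to fixed by construction. That median mixes both arms. Among the 95 tested 5p strands, whose median was -1.04 with TMM, miR-205-5p ranked 42 from the top and so lay near the middle.

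All counts of miR-205-3p, 5 in number, came from tumor 1, where they made up 25.0% of the hairpin's 20 counts (exact 95% interval 8.66 to 49.1). The log2 5p:3p ratio was called lower in the tumors (-2.91, SE 0.90, limma adjusted p = 0.0202). In the other 5 libraries the 3p count was 0, so that their ratio is set by the 5p count and the added 0.5. Without tumor 1 the call was kept on 0 counts of the 3p strand (-2.02, adjusted p = 0.0313), and it was lost with a pseudocount of 0.1 (-3.70, adjusted p = 0.0787) and without tumor 2 (-2.85, adjusted p = 0.0506).

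Members were also compared with each other and with the miR-200 family, whose guides (miR-200a-3p, miR-200b-3p, miR-200c-3p, miR-141-3p and miR-429-3p) are present in nearly all epithelia and restrain the zinc finger repressors Zeb1 and Zeb2. A ratio of 2 counts of a library needs no scaling. The summed guides of the miR-183 cluster had 618, 768 and 778 counts in the tumors and 888, 1027 and 608 in the oviducts, beside 766, 1634 and 1497 miR-200 guide counts in the tumors and 3626, 6557 and 1756 in the oviducts. The cluster therefore stood at 0.807, 0.470 and 0.520 times the miR-200 guides in the tumors, against 0.245, 0.157 and 0.346 times in the oviducts. Every tumor exceeded every oviduct, a 2.46-fold difference (log2 1.30, SE 0.41, two-sided exact permutation p = 0.1, adjusted over the 9 ratios 0.15). This ratio sets 5p strands against 3p strands, whose median log2 fold changes over all tested strands were -1.04 and 0.89.

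Relative to the same miR-200 guides, miR-203-3p stood at 0.0601, 0.0373 and 0.0969 in the tumors and at 0.0124, 0.0102 and 0.0245 in the oviducts. The groups were again apart, by 4.11-fold (log2 2.04, SE 0.55, exact p = 0.1, adjusted 0.15). For miR-205-5p the ratios were 0.0196, 0.00245 and 0.0120 in the tumors and 0.00745, 0.0101 and 0.0154 in the oviducts. These overlapped, and the log2 difference of -0.27 (SE 0.92, exact p = 0.9) changed sign without tumor 2 (0.57). Singly, 4 of the 5 miR-200 guides missed the threshold, with log2 fold changes from -0.92 for miR-141-3p to -0.51 for miR-429-3p, and miR-200c-3p was called lower (log2 -1.03, edgeR adjusted p = 0.0483), a call lost on library totals alone (log2 -0.53, adjusted p = 0.469), with upper-quartile factors (adjusted p = 0.0683), and without tumor 2, oviduct 2 or oviduct 3 (adjusted p = 0.135, 0.117 and 0.102).

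In counts, miR-205-5p was lower than miR-203-3p in every library. The count of miR-205-5p was 0.326, 0.0656 and 0.124 times that of miR-203-3p in the tumors, and 0.600, 0.985 and 0.628 times in the oviducts. The groups did not overlap, with a 4.95-fold lower ratio in the tumors (log2 -2.31, SE 0.68, exact p = 0.1, adjusted 0.15). This ratio sets a 5p strand against a 3p strand. The median log2 fold change was -1.04 for tested 5p strands and 0.89 for tested 3p strands. Ratios of a 5p to a 3p strand thus tended to be lower in the tumors in general. The same arm difference enters the other ratios that set 5p against 3p strands. Relative to the summed cluster, the log2 ratio of miR-203-3p differed by 0.74 (SE 0.45) and that of miR-205-5p by -1.57 (SE 0.75), both with exact p = 0.1 and no overlap. Without tumor 3 the first of these was 0.32, and without tumor 2 the second was -0.88.

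**Figure D4:**
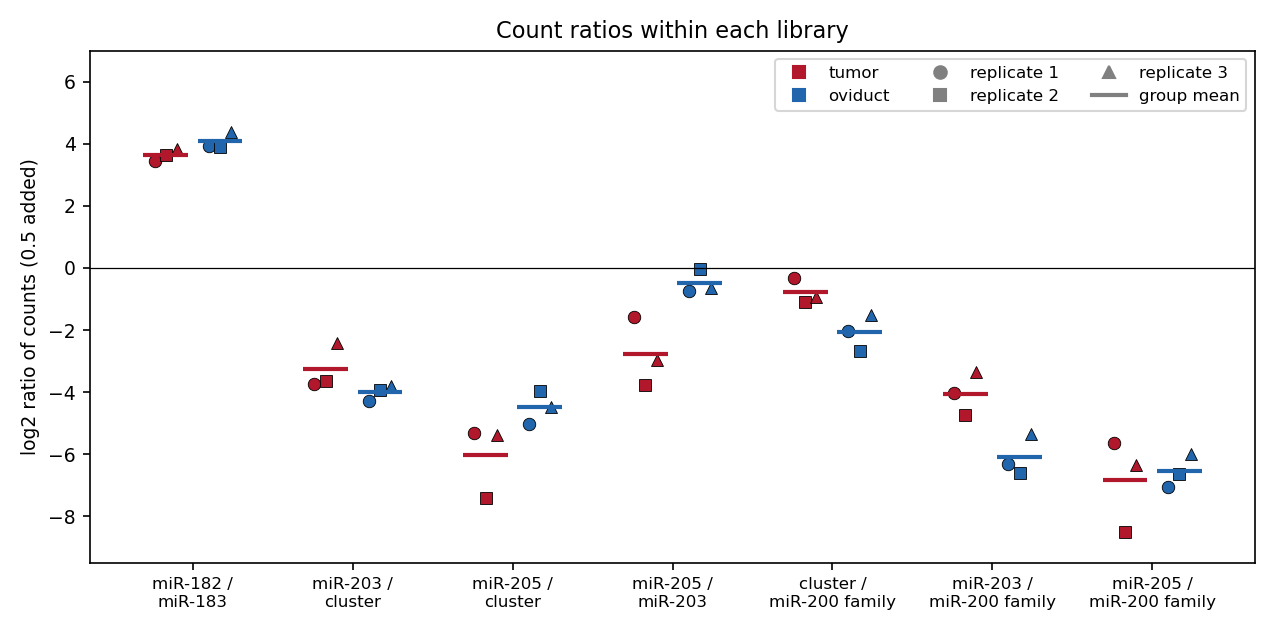
Log2 ratios of counts within each library (0.5 added to each count), tumors in red left of oviducts in blue, with a marker shape per replicate number and a bar at the group mean (n = 3 each); cluster stands for the summed guides of miR-182, miR-183 and miR-96. The groups are apart for 6 of the 7 ratios drawn, and overlap for miR-205 over the miR-200 family. The ratios of miR-96-5p, which also overlap, are among the 9 computed but are not drawn. Several ratios share strands and are not independent, and 60.4% of single tested microRNAs were without overlap in CPM.

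The profiles most like each tested member were found as the smallest root mean square difference of log2 CPM over the 6 libraries, each profile centred on its own mean. For miR-182-5p these were miR-320-3p (0.0754), miR-151-3p (0.144) and miR-15b-5p (0.170), and miR-183-5p came in at rank 11 of the other 226. For miR-183-5p they were miR-101b-3p (0.201), miR-126a-5p (0.227) and let-7b-3p (0.242), with miR-182-5p next (0.285). For miR-203-3p they were miR-152-3p (0.360), miR-30e-3p (0.374) and miR-126a-3p (0.388), all called higher in the tumors. For miR-205-5p the nearest were miR-152-5p (0.425), miR-1249-3p (0.482) and miR-708-5p (0.488). Between miR-203-3p and miR-205-5p the difference was 1.26, and between miR-182-5p and miR-205-5p it was 0.996, and miR-205-5p held rank 125 from miR-182-5p, 143 from miR-183-5p and 124 from miR-203-3p among the other 226.

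**Figure D5:**
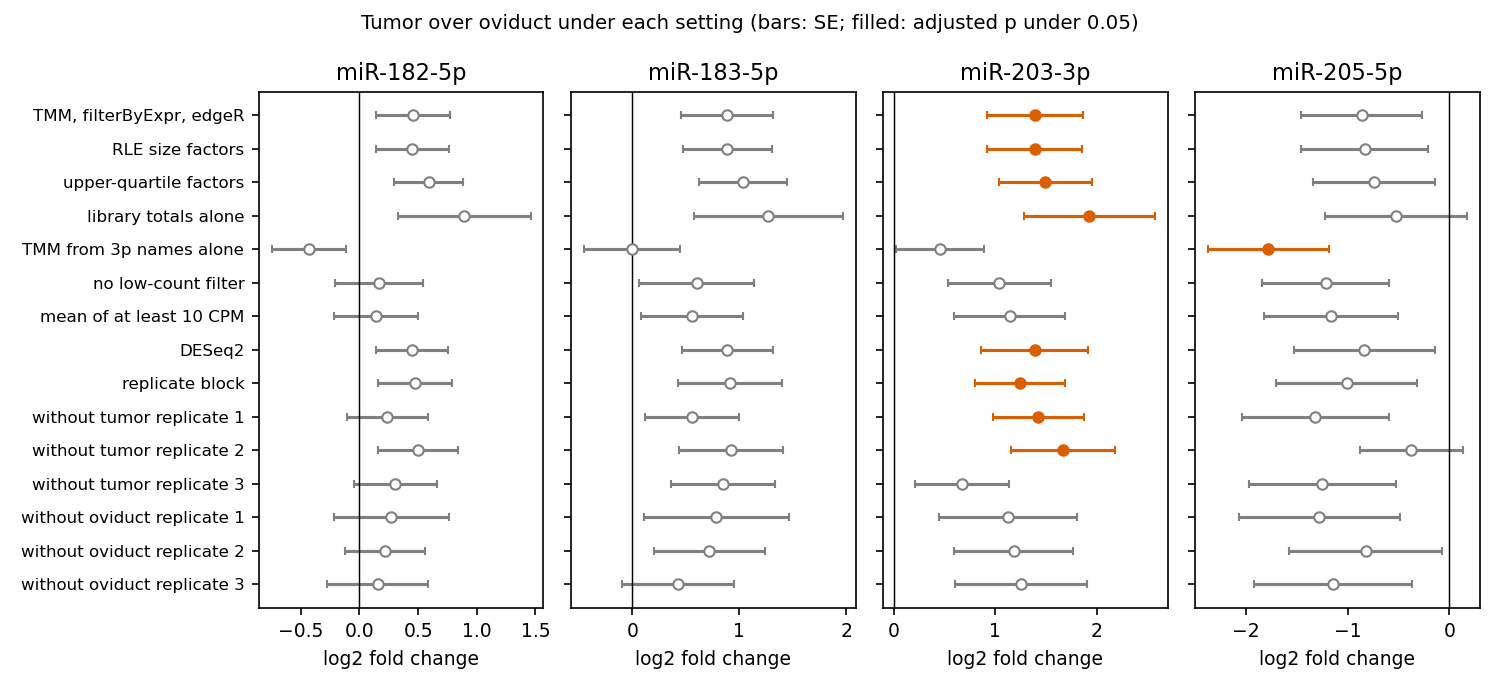
Log2 fold change (tumor over oviduct, horizontal) of the 4 tested members under each setting (vertical), with bars for the SE and filled points for an adjusted p under 0.05. The signs of miR-182-5p and miR-183-5p turn with TMM factors from 3p names, miR-203-3p is above 0 in all settings drawn and called in 7 of the 14 alternatives, and miR-205-5p is called in 1.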

How the data were processed

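Small RNA libraries (Illumina TruSeq) were made from miRNeasy total RNA, per the labels' protocols, and cutadapt was used on the reads, per the submitters' processing notes. The authors deposited unnormalized counts per mature microRNA, made from BAM files of trimmed reads per the file headers. The aligner, counter, microRNA reference and build were not given in the sources used here. Of 1982 names, 67 of other species (10 counts) were left out. The series text names 4 tumors and 5 oviducts; 3 of each were analysed here. No library repeated another of its group (lowest chi-square per degree of freedom 24.4).

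The edgeR 4.0.16 quasi-likelihood test (robust, R 4.3.3) used TMM factors and filterByExpr with a minimum count of 10. TMM factors were 0.733 to 1.48 in the tumors and 0.855 to 0.948 in the oviducts. Adjusted p-values are two-sided Benjamini-Hochberg values over all 227 tested names. The 5p:3p log2 ratio (0.5 added) was tested with limma 3.58.1 over hairpins averaging 20 counts or more. The 9 other ratios used exact permutation tests (scipy 1.17.1). Shares of single libraries and of pooled groups carry Clopper-Pearson intervals. These and the floor of 3 counts cover counting error only, since PCR reads are not independent molecules. Alternatives were DESeq2 1.42.0, other scalings, filters and pseudocounts, the replicate block, and leaving out each library. The fits were tested on simulated data.

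Members and lists were chosen with earlier results of these data known. Named microRNAs were the members, their opposite strands, the miR-200 guides, the marker lists, the 3 nearest profiles of each member and names that share a seed.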

Additional observations from a re-analysis of the deposited data

How the results depend on the processing

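With TMM factors from 3p names the log2 fold changes were -0.43 for miR-182-5p, -0.0021 for miR-183-5p, 0.45 for miR-203-3p (not called) and -1.78 for miR-205-5p (called), and those factors lower all values. The call of miR-203-3p was also lost with no low-count filter (1.04) and with a filter at 10 CPM on average (1.14); the cause was not tested. The same filters, in that order, gave 0.17 and 0.14 for miR-182-5p, 0.60 and 0.56 for miR-183-5p, and -1.22 and -1.16 for miR-205-5p, none of them called. Without single libraries the log2 fold changes lay between 0.15 and 0.50 for miR-182-5p, 0.43 and 0.92 for miR-183-5p, 0.67 and 1.67 for miR-203-3p, and -1.32 and -0.38 for miR-205-5p. Calls over all microRNAs were 98 higher with no filter, 27 lower on library totals and 92 lower with TMM factors from 3p names, and leaving out single libraries gave 61 to 71 higher and 42 to 73 lower. With no filter miR-96-5p had a log2 fold change of -0.27 (edgeR adjusted p = 0.903).

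The log2 5p:3p ratio of miR-203 differed by -0.35 with a pseudocount of 5 and lay between -0.89 and 1.10 without single libraries. That of miR-205 was not called with a pseudocount of 0.1 (-3.70) and lay between -3.87 and -2.02 without single libraries, a fit without oviduct 2 not including it because its mean total fell under 20. Of 81 alternatives for the 9 count ratios, 76 kept their direction. The ratio of miR-96-5p to miR-182-5p turned to 0.059 with a pseudocount of 5 and lay between -1.16 and 0.067 without single libraries, and that of miR-205-5p to the miR-200 guides turned to 0.11 with a pseudocount of 5 and lay between -0.87 and 0.57.

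No pairing by replicate number was seen. Same-numbered tumors and oviducts had correlations of -0.0455, 0.0897 and -0.136 in their deviations from the group means, and not every sample correlated best with its own number. With so few libraries in each group this check cannot exclude a pairing. With the replicate number as a block, edgeR called 55 higher and 53 lower, and the log2 fold change of miR-203-3p was 1.24 (adjusted p = 0.0434), so the block changed no call of a member. Counts of at most 18 in the tumors limit miR-205-5p, and counts of at most 3 limit miR-96-5p and the opposite strands other than miR-205-3p.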
